A study of Mus musculus with 14 samples.

Results

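The genes described here encode the machinery of mitosis: the kinases and cyclins that start it, the kinetochore and spindle that separate the chromosomes, the checkpoint that times anaphase, and the condensin and cytokinesis factors that pack and divide. They are the 58 rows of the deposited count table that carry a fixed list of gene symbols, out of 77981 rows. The rule is by symbol, but the list was drawn up with earlier results of these data known. All 58 passed the filter on low counts, within 13997 genes tested. Sequencing of messenger RNA from its 3′ end measured them in 14 mouse liver tumours, which the series describes as biological replicates. Of these, 4 were labelled as lacking both Cdk16 and Cdk18 (DKO), 5 as lacking Cdk18 (CDK18KO) and 5 as wild type (WT).

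Every group carried tumours raised by hydrodynamic injection, a fast tail-vein injection that brings plasmids into hepatocytes, here carrying the mouse oncogenes c-Myc and β-catenin. The removal of Cdk16 came late: tamoxifen was injected once tumours existed, into animals with floxed Cdk16 and Cre-ERT2, and into Cre-ERT2 controls. Its dose was 75 mg/kg on 5 days, and tissue was taken 10 days after the last dose. The same protocol text stands with every library, and the sources used here do not give which WT and CDK18KO animals carried Cre-ERT2 or received tamoxifen, nor the strain, sex, age or promoter that drives Cre-ERT2. A difference that sets DKO against CDK18KO or WT tumours therefore cannot be told apart from one of Cre or tamoxifen. Cdk16 and Cdk18 belong to the PCTAIRE family, relatives of the cell cycle kinases that are best known outside the cell cycle.

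As background, cyclin B with Cdk1 drives a cell into mitosis, and the Aurora and Polo kinases build the spindle. Kinetochores join each chromosome to spindle microtubules, and the checkpoint holds the anaphase-promoting complex until all are joined. That complex, with Cdc20, then destroys securin and cyclin B. In most mammalian cells the genes for these proteins are transcribed together in the G2 and M phases, through B-MYB, FOXM1 and a promoter element called CHR. Normal adult hepatocytes seldom divide, whereas liver tumours driven by c-Myc do.

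The libraries held between 1442417 and 6068209 counts. Levels are given as CPM, counts scaled to a common library total. They are compared between libraries for 1 gene at a time, not between genes. Cdk16 had 38.9, 18.03, 48.5 and 17.8 CPM in DKO 1 to DKO 4, against 65.8, 36.7, 37.0, 32.7 and 31.0 CPM in CDK18KO 1 to CDK18KO 5 and 47.8, 59.2, 53.0, 40.0 and 45.5 CPM in WT 1 to WT 5. Cdk18 had 4.00, 0.56, 1.94 and 1.11 CPM in the DKO libraries, against 1.86, 1.06, 3.42, 2.64 and 0.93 CPM in CDK18KO and 2.22, 10.4, 5.24, 1.26 and 4.63 CPM in WT. Neither passed the test in any comparison, and a 3′ count need not fall in a deleted exon, so these values check no label.

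The tumours differed widely in the summed level of 15 hepatocyte genes, such as Alb, all of which were tested. The sum was 12419.8, 24190.0, 1865 and 6493 CPM in DKO 1 to DKO 4, against 2405, 15734, 1336, 7451 and 5655 CPM in CDK18KO and 135, 3931, 237, 476 and 1901 CPM in WT. Erythroid genes summed to between 1738 and 10193 CPM in DKO, 537 and 1928 CPM in CDK18KO, and 562 and 2669 CPM in WT, with 8 of 8 tested. Neutrophil genes summed to between 369 and 547 CPM in DKO, 5.28 and 93.1 CPM in CDK18KO, and 43.7 and 272 CPM in WT, with 5 of 8 tested. B and plasma cell genes summed to between 33.3 and 127 CPM in DKO, and to at most 8.08 CPM in CDK18KO and 9.26 CPM in WT, with 3 of 8 tested and Mzb1 at 0 throughout. Of 8 T and NK cell genes none was tested, and their sum stayed at or below 13.0 CPM. Macrophage genes, with 8 of 9 tested, summed to 665, 333, 95.5 and 86.1 CPM in DKO 1 to DKO 4, against at most 166 CPM in CDK18KO and 156 CPM in WT. All 8 had a higher fitted level in DKO than in WT (median log2 fold change 1.21), none passed edgeR's test, and 3 were higher at an unadjusted p under 0.05, beside 13.7% of all genes. Endothelial genes, with 6 of 8 tested, summed to 167, 159, 44.99 and 47.8 CPM in DKO 1 to DKO 4, to between 20.8 and 161 CPM in CDK18KO, where CDK18KO 2 was the highest, and to between 41.6 and 69.9 CPM in WT. DKO 1 and DKO 2, the tumours lowest in mitosis genes, were thus the highest in macrophage genes and among the 3 highest in endothelial genes. Erythroid genes went the other way, at 2377 and 1738 CPM in DKO 1 and DKO 2. DKO 3 and DKO 4 had 5496 and 10193 CPM of them. B and plasma cell, neutrophil and cholangiocyte genes were highest in DKO 4, at 127, 547 and 556 CPM. Stellate cell genes summed to medians of 611 CPM in DKO and 174 CPM in CDK18KO, against 781 CPM in WT, and cholangiocyte genes to medians of 375 CPM in DKO and 36.7 CPM in CDK18KO, against 347 CPM in WT. In bulk tumour, fewer dividing cells and less mitotic RNA per cell cannot be told apart, and the part of these other cells in the results below was not tested.

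The mitosis genes moved largely as a block from tumour to tumour. In DKO 1 to DKO 4, 6, 1, 37 and 8 of the 58 genes stood above their own median over the 14 libraries. The counts were 54, 20, 49, 19 and 32 in CDK18KO 1 to CDK18KO 5 and 38, 21, 36, 48 and 37 in WT 1 to WT 5. DKO 1 and DKO 2 held the lowest levels of all 14 tumours, DKO 4 was moderately low, and DKO 3 lay among the WT tumours. On the log2(CPM + 1) scale, the median deviation of the genes from their own means was -0.85, -0.96, 0.22 and -0.26 in the DKO tumours. It lay between -0.13 and 0.51 in CDK18KO and between -0.05 and 0.47 in WT. The 3 tumours with the highest hepatocyte sums were among those low in mitosis genes, but the order did not hold throughout. The 3 highest hepatocyte sums were those of DKO 2, CDK18KO 2 and DKO 1: DKO 2 and DKO 1 were the lowest in mitosis genes, and CDK18KO 2 had 20 of 58 genes above their median. DKO 3, the DKO tumour with the lowest hepatocyte sum, was the only DKO tumour with a positive median deviation. CDK18KO 1, with the most genes above their median, had a hepatocyte sum of 2405 CPM, beside a WT median of 476 CPM. CDK18KO 5, at 5655 CPM, had a median deviation of 0.19. In CDK18KO over WT, the median log2 fold change was 2.56 over the hepatocyte genes and -0.03 over the mitosis genes.

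**Figure D1:**
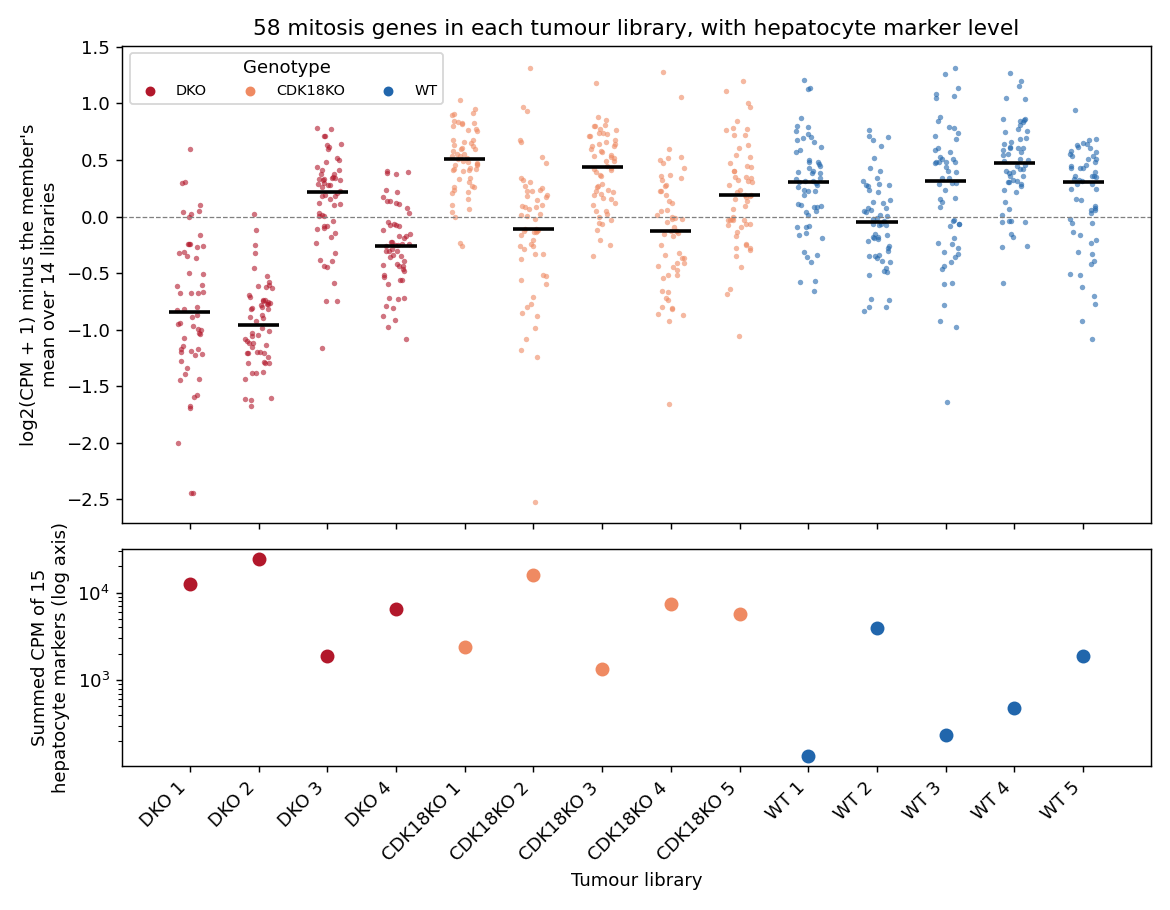
Upper panel: each point is 1 of the 58 mitosis genes in 1 tumour library, as log2(CPM + 1) minus that gene's mean over the 14 libraries, with the library's median as a black line. Lower panel: the summed CPM of 15 hepatocyte genes on a log axis; DKO 1 and DKO 2 have the lowest medians, -0.85 and -0.96, beside hepatocyte sums of 12419.8 and 24190.0 CPM.

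In DKO tumours, 57 of the 58 mitosis genes had a lower fitted level than in WT tumours. The median log2 fold change was -0.64 over the 58 genes and -0.04 over all 13997 genes, of which 52.1% were below 0. No single mitosis gene passed edgeR's quasi-likelihood test at an adjusted p under 0.05, which 0.00714% of all genes, a single gene, did. At an unadjusted p under 0.05, 17 mitosis genes were lower and none higher, or 29.3% of them, against 5.22% lower and 13.7% higher over all genes. For 6 genes, or 10.3%, every DKO library lay below every WT library, and for none above, against 2.46% below and 3.04% above over all genes. DESeq2, another count test, called 6 of the 58 genes, all lower, at an adjusted p under 0.05. Of the 17357 genes to which it gave an adjusted p, it called 0.864% lower and 5.81% in either direction. The number at an unadjusted p under 0.05 depended on single tumours: it was 7 without DKO 2 and 30 without DKO 3, beside 2.42% and 10.3% of all genes lower. Without DKO 3, 20 genes had groups that did not overlap, all lower, beside 11.1% of all genes lower. Without DKO 1 and DKO 2 together, the median was -0.23, beside -0.03 over all genes, and 47 genes were below 0. Then 5 were lower at an unadjusted p under 0.05, beside 2.65% of all genes, and 11 had groups that did not overlap, 10 of them lower, beside 6.54% of all genes lower and 6.55% higher. Y-linked genes summed to at most 2.78 CPM in DKO, but to 348 CPM in CDK18KO 1, 204 CPM in WT 3 and 788 CPM in WT 5. Without those 3 libraries, 11 mitosis genes were lower at an unadjusted p under 0.05, beside 4.44% of all genes, and the median was -0.66.

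The spindle-associated protein Ckap2l, also called radmis, which is needed for orderly spindle assembly, had the smallest p. Ckap2l had 22.0, 22.0, 31.7 and 22.2 CPM in DKO, against 56.4, 51.9, 46.9, 48.5 and 49.4 CPM in WT. Every DKO tumour lay well below every WT tumour, DKO 3 included, and the log2 fold change was -1.04 ± 0.23 (SE), with an edgeR adjusted p of 0.146. DESeq2 gave an adjusted p of 0.00117, and over all alternatives the adjusted p lay between 0.00117 and 0.657. Leaving out any single library kept the log2 fold change between -1.21 and -0.99. Among WT tumours Ckap2l was the steadiest of the 58 genes, with an SD of 0.101 on the log2(CPM + 1) scale. Only 55 of the 11485 genes in the same range of levels had a smaller one. Counted from the smallest SD, Ckap2l held rank 6 of the 58 genes in CDK18KO and rank 2 in DKO. A small spread within groups itself lowers p, so this steadiness is not separate from the small p.

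Incenp, the scaffold of the chromosomal passenger complex that carries Aurora B, had 86.3, 59.7, 90.0 and 65.0 CPM in DKO, against 272, 149.9, 172, 169 and 128 CPM in WT. The groups did not overlap, and the log2 fold change was -1.24 ± 0.33 (SE), with an edgeR adjusted p of 0.146. Its partner Cdca8, borealin, also did not overlap, at 87.5 ± 22.8 CPM in DKO and 148 ± 33.1 CPM in WT (SD, n = 4 and 5; log2 fold change -0.76). Birc5, survivin, another passenger subunit, averaged 153 ± 32.5 CPM in DKO and 202 ± 22.9 CPM in WT, with overlapping groups. Aurkb, which encodes Aurora B itself, averaged 27.6 ± 11.6 CPM in DKO and 35.9 ± 8.21 CPM in WT, also with overlap.

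Among genes of mitotic entry, Cdc25c, a phosphatase that activates Cdk1, had 9.14, 6.20, 6.15 and 8.34 CPM in DKO, against 18.9, 12.2, 16.3, 17.0 and 17.7 CPM in WT. All 4 DKO tumours lay below the lowest WT tumour, with a log2 fold change of -1.13 ± 0.34 (SE) and an adjusted p of 0.146 by edgeR. Its relative Cdc25b averaged 47.1 ± 20.3 CPM in DKO and 78.7 ± 32.7 CPM in WT, with overlap. Cdk1 itself had 119.7, 69.9, 132 and 112 CPM in DKO, against 153, 164, 197, 125 and 82.5 CPM in WT. The ranges overlapped, and the log2 fold change of Cdk1 was -0.42 ± 0.28 (SE), with an edgeR adjusted p of 0.439. For Ccnb1, cyclin B1, it was -0.54, with 74.9 ± 37.0 CPM in DKO and 109 ± 27.4 CPM in WT. All 6 entry genes were below 0, from -1.13 to -0.18, the smallest difference being that of Ccnb2.

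Of the kinetochore genes, Cenpe, the kinesin that moves chromosomes to the spindle equator, had 77.1, 74.4, 178 and 107 CPM in DKO, against 326, 169, 138, 321 and 272 CPM in WT. DKO 3 lay above the 2 lowest WT tumours, and the log2 fold change was -1.17 ± 0.35 (SE), with an edgeR adjusted p of 0.146. Ndc80, a subunit of the complex that grips microtubules, had 14.0, 20.3, 33.3 and 25.0 CPM in DKO, against 46.4, 33.8, 43.4, 50.7 and 45.5 CPM in WT. Its groups nearly met but did not overlap, with a log2 fold change of -0.92 ± 0.29 (SE) and an adjusted p of 0.146 by edgeR. The other subunits of the same complex differed less: Nuf2 had a log2 fold change of -0.33 and Spc24 of -0.42. Spc25 was the only one of the 58 genes above 0, at 0.10 ± 0.28 (SE), with 79.0 ± 9.56 CPM in DKO and 73.5 ± 21.9 CPM in WT, and its sign turned under 2 other scalings.

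Chromosome packing followed the same direction in all 7 genes. Ncapd2, a condensin I subunit, had 40.6, 19.7, 87.4 and 43.9 CPM in DKO, against 144, 86.5, 121, 136 and 94.9 CPM in WT. DKO 3 overlapped the lowest WT tumour by a narrow margin, and the log2 fold change was -1.28 ± 0.41 (SE), with an edgeR adjusted p of 0.147. Ncapg, another condensin I subunit, had a log2 fold change of -0.77, with 64.0 ± 27.6 CPM in DKO and 109 ± 31.0 CPM in WT. Top2a, the topoisomerase that untangles sister chromatids, averaged 544 ± 275 CPM in DKO and 883 ± 303 CPM in WT (log2 fold change -0.70, edgeR adjusted p = 0.324). Mki67, which encodes the proliferation marker Ki-67, had 35.1, 93.0, 181 and 191 CPM in DKO, against 249.6, 82.4, 72.8, 297 and 215 CPM in WT. Both groups spanned a wide range and overlapped, and the log2 fold change of Mki67 was -0.55 ± 0.56 (SE), with an edgeR adjusted p of 0.608.

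Of the 2 transcription factors that drive mitotic genes, Mybl2, which encodes B-MYB, had 6.86, 2.82, 5.50 and 5.56 CPM in DKO, against 19.3, 10.2, 13.1, 18.6 and 12.3 CPM in WT. No DKO tumour reached the lowest WT tumour, and its log2 fold change of -1.48 ± 0.59 (SE) was the most negative of the 58, with an edgeR adjusted p of 0.196. Mybl2 counts were low: the 2.82 CPM of DKO 2 come from a library of 2226817 counts and rest on few reads. Foxm1 had 22.3, 7.89, 18.1 and 13.3 CPM in DKO, against 21.5, 36.0, 45.1, 25.8 and 16.2 CPM in WT. Its groups overlapped, with a log2 fold change of -0.90 ± 0.40 (SE) and an adjusted p of 0.240 by edgeR.

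In the remaining roles, single genes stood at lower levels in DKO tumours without passing the test. The Aurora kinase A gene Aurka averaged 40.8 ± 14.5 CPM in DKO and 74.3 ± 26.7 CPM in WT, and Melk 18.4 ± 9.87 CPM in DKO and 31.3 ± 8.63 CPM in WT. Plk1, the Polo kinase of mitosis, had a log2 fold change of -0.29, with 109 ± 27.3 CPM in DKO and 134 ± 28.2 CPM in WT. The 5 checkpoint genes lay between -0.69 for Bub1b and -0.29 for Mad2l1, with Ttk, the kinase that starts the checkpoint signal, at -0.57. Cdc20, which activates the anaphase-promoting complex, averaged 43.7 ± 14.9 CPM in DKO and 85.2 ± 35.8 CPM in WT. Its ubiquitin-conjugating partner Ube2c averaged 86.1 ± 22.4 CPM in DKO and 160.3 ± 78.7 CPM in WT. Among motors, the microtubule-depolymerising kinesin Kif2c had a log2 fold change of -0.87 ± 0.29 (SE) and an adjusted p of 0.151 by edgeR. For the midzone kinesin Kif23 it was -0.85 ± 0.46 (SE), with an edgeR adjusted p of 0.326. Tpx2, which activates Aurora A on the spindle, averaged 58.6 ± 22.0 CPM in DKO and 99.4 ± 28.2 CPM in WT. In cytokinesis, Racgap1 had a log2 fold change of -0.95, whereas Anln was at -0.23 and Ect2 at -0.0035.

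**Figure D2:**
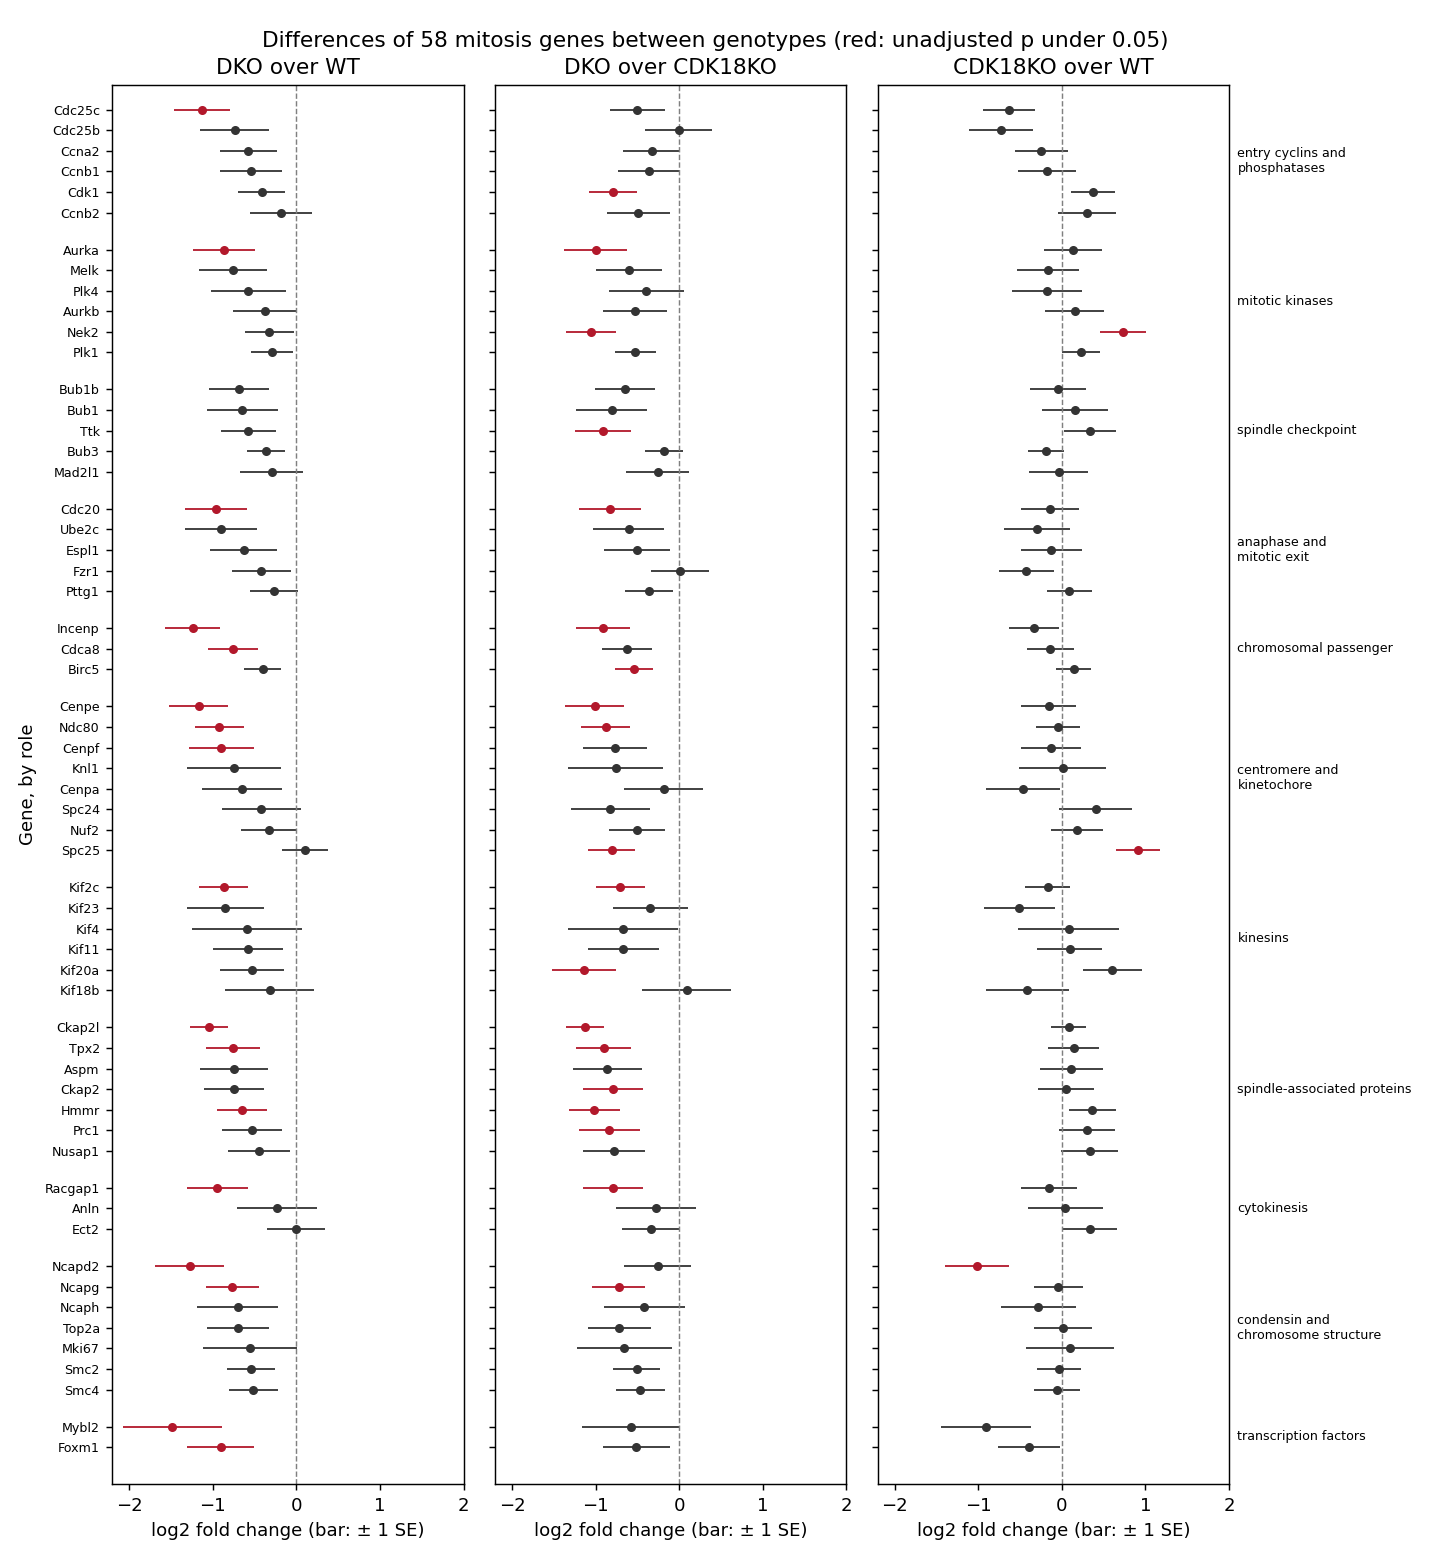
Log2 fold change of each of the 58 mitosis genes, with a bar of 1 SE to each side, for DKO over WT, DKO over CDK18KO and CDK18KO over WT, grouped by role; red marks an unadjusted p under 0.05. In DKO over WT 57 of 58 points lie below 0, in DKO over CDK18KO 56, and in CDK18KO over WT 30.

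In CDK18KO tumours, the mitosis genes showed no common direction against WT. The median log2 fold change was -0.03 over the 58 genes, 30 of them below 0 and 28 above, and -0.01 over all genes, of which 50.6% were below 0. No mitosis gene passed edgeR's test, beside 0.00714% of all genes. At an unadjusted p under 0.05, 1 mitosis gene was lower and 2 were higher, against 5.31% of all genes lower and 11.6% higher. No mitosis gene had groups that did not overlap, against 1.6% of all genes lower and 1.1% higher. DESeq2 called 1 mitosis gene, higher in CDK18KO, beside 5.35% of all genes, 1.88% being lower. Without CDK18KO 3, 3 were lower and 2 higher at an unadjusted p under 0.05, beside 7.43% of all genes lower and 13.9% higher. Without CDK18KO 1, WT 3 and WT 5, 40 genes were below 0 and the median was -0.19. Single libraries left out gave at most 2 genes without overlap: 1 lower and 1 higher without CDK18KO 1, beside 5.24% and 2.95% of all genes, and 2 lower without WT 2, beside 2.72%. Without CDK18KO 2 or WT 4, 1 was higher, beside 1.01% and 1.49% of all genes. The counts at an unadjusted p under 0.05 and the DESeq2 call lay below the share over all genes. Those without overlap lay near or below it.

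The gene DESeq2 called was Spc25, an Ndc80 complex subunit. Spc25 had 106, 114, 132, 223 and 116 CPM in CDK18KO, against 71.9, 73.6, 66.1, 108 and 47.8 CPM in WT. WT 4 alone reached the lowest CDK18KO tumour. The edgeR log2 fold change was 0.91 ± 0.26 (SE; adjusted p = 0.162), the DESeq2 adjusted p was 0.0304, and the adjusted p lay between 0.0304 and 0.408 over all alternatives. Its complex partners had log2 fold changes of 0.40 for Spc24, 0.18 for Nuf2 and -0.04 for Ndc80.

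Nek2, a kinase that separates centrosomes, had 60.9, 87.2, 43.2, 61.1 and 89.4 CPM in CDK18KO, against 30.0, 33.8, 44.2, 37.2 and 61.7 CPM in WT. The groups overlapped, with a log2 fold change of 0.73 ± 0.27 (SE) and an adjusted p of 0.208 by edgeR. Ncapd2 had 91.9, 35.1, 76.7, 35.3 and 47.7 CPM in CDK18KO, and the WT values given above lay between 86.5 and 144 CPM. CDK18KO 1 alone was within the WT range, and the log2 fold change was -1.02 ± 0.38 (SE), with an edgeR adjusted p of 0.206. Between DKO and CDK18KO tumours, the log2 fold change of this condensin gene was -0.26 ± 0.40 (SE).

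Both Cdc25 phosphatases had lower means in CDK18KO tumours. Cdc25c had 13.4, 6.91, 13.4, 6.61 and 12.5 CPM in CDK18KO, against 12.2 to 18.9 CPM in WT, with a log2 fold change of -0.63 ± 0.31 (SE) and an adjusted p of 0.313 by edgeR. Cdc25b had 55.3, 21.8, 59.3, 40.6 and 60.2 CPM in CDK18KO, against 86.4, 82.0, 127, 43.8 and 54.0 CPM in WT, with overlap and a log2 fold change of -0.73 ± 0.38 (SE) and an adjusted p of 0.351 by edgeR. Kif20a, a kinesin of the late spindle, had 64.6, 104, 55.3, 42.6 and 51.4 CPM in CDK18KO, against 33.0, 34.3, 57.9, 54.8 and 28.5 CPM in WT, also with overlap. Its log2 fold change was 0.60 ± 0.35 (SE), with an edgeR adjusted p of 0.400. Neither direction dominated these single genes.

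The general proliferation genes overlapped between CDK18KO and WT tumours. Mki67 had 247, 131, 329, 207 and 68.6 CPM in CDK18KO, Cdk1 had 199.7, 129.8, 190.4, 172 and 244 CPM, and Foxm1 had 25.8, 12.2, 24.5, 16.2 and 32.0 CPM. Their log2 fold changes were 0.10 ± 0.53, 0.37 ± 0.26 and -0.39 ± 0.37 (SE), in that order. The sign for Mki67 turned without CDK18KO 3, without WT 2 or without WT 3. Top2a averaged 894 ± 342 CPM in CDK18KO and 883 ± 303 CPM in WT, and Plk1 157 ± 34.0 CPM in CDK18KO and 134 ± 28.2 CPM in WT. Mybl2 averaged 7.74 ± 5.23 CPM in CDK18KO, where CDK18KO 2 had 0.53 CPM, and 14.7 ± 4.03 CPM in WT (log2 fold change -0.91, edgeR adjusted p = 0.409). The remaining genes named by the rule had log2 fold changes of 0.34 for Ttk, -0.19 for Bub3, -0.43 for Fzr1, -0.29 for Ube2c, -0.33 for Incenp and 0.14 for Birc5. Those of Cenpa, Kif23, Hmmr and Nusap1 were -0.46, -0.51, 0.36 and 0.33, and those of Ect2, Racgap1, Ncaph and Ccnb1 were 0.33, -0.15, -0.28 and -0.18.

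When DKO tumours were set against CDK18KO tumours, 56 of 58 mitosis genes had a lower fitted level in DKO. Both comparisons use the same 4 DKO libraries, so neither supports the other. The median log2 fold change was -0.63 over the 58 genes and -0.02 over all genes, of which 51.8% were below 0. No mitosis gene passed edgeR's test, beside 0% of all genes. At an unadjusted p under 0.05, 19 were lower, or 32.8%, and none higher, against 1.86% of all genes lower and 3.94% higher. For 6 genes, or 10.3%, every DKO library lay below every CDK18KO library, and for none above, against 0.722% below and 0.872% above over all genes. DESeq2 called 1 of the 58 genes, lower in DKO, beside 0.0212% of all genes lower and 0.632% in either direction. The 19 became 10 without DKO 2, 31 without DKO 3 and 6 without DKO 1 and DKO 2 together, beside 1.45%, 3.35% and 2.47% of all genes lower, and in the last case the median was -0.29. The 6 became 18 without DKO 3 and 10 without CDK18KO 2, beside 1.96% and 2.16% of all genes lower.

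Ckap2l again had the smallest p. It had 64.0, 44.7, 62.7, 53.2 and 43.6 CPM in the CDK18KO tumours, above each of the DKO values given earlier, 22.0 to 31.7 CPM. The log2 fold change was -1.13 ± 0.23 (SE), with an edgeR adjusted p of 0.186. It is the gene DESeq2 called, with an adjusted p of 0.000348, and the adjusted p lay between 0.000348 and 0.666 over all alternatives.

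**Figure D3:**
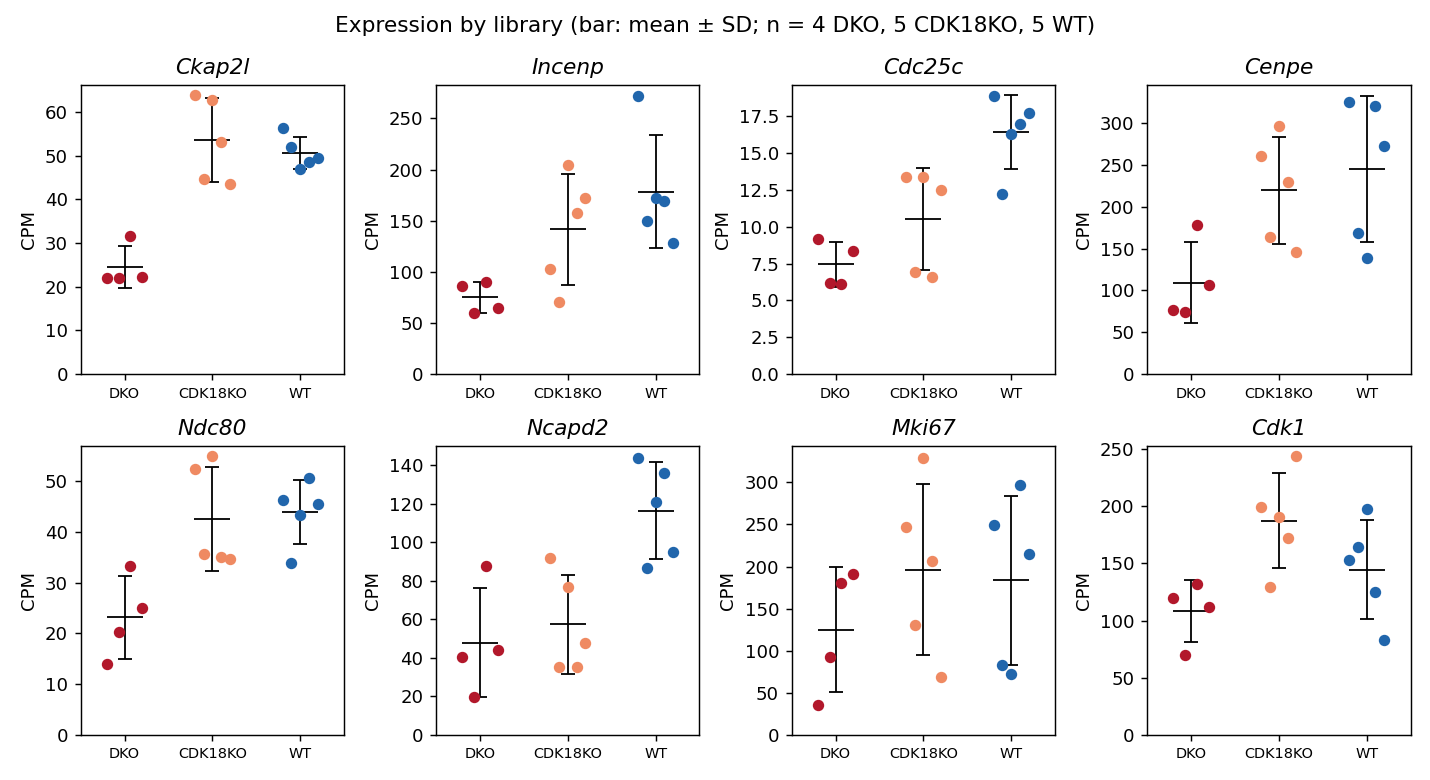
CPM of the 6 mitosis genes with the smallest p in DKO over WT, and of Mki67 and Cdk1, in each library, with mean and SD bars for DKO (n = 4), CDK18KO (n = 5) and WT (n = 5). The Ckap2l points of the DKO tumours, 22.0 to 31.7 CPM, lie below all CDK18KO and WT points, whereas those of Mki67 overlap in all 3 groups.

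Nek2 had 25.4, 31.0, 41.8 and 33.3 CPM in DKO, all below the CDK18KO values of 43.2 to 89.4 CPM, at a log2 fold change of -1.05 ± 0.30 (SE) and an adjusted p of 0.407 by edgeR. Hmmr, a spindle and microtubule-binding protein, had 30.3, 54.7, 79.0 and 65.6 CPM in DKO, against 112, 98.4, 141, 105 and 122 CPM in CDK18KO. The groups stood apart, with a log2 fold change of -1.01 ± 0.31 (SE) and an adjusted p of 0.470 by edgeR. Ndc80 had 52.5, 35.6, 55.0, 35.0 and 34.8 CPM in CDK18KO, just above the highest DKO value of 33.3 CPM (log2 fold change -0.88 ± 0.29, SE; edgeR adjusted p = 0.526). Spc25 and Ttk were the other genes without overlap, at log2 fold changes of -0.81 and -0.91; in both, the CDK18KO mean stood above the WT mean as well. For Nek2, Hmmr, Spc25 and Ttk the mean was thus highest in CDK18KO tumours, and their DKO and WT tumours overlapped.

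Kif20a had 20.6, 15.2, 48.5 and 31.1 CPM in DKO, where only DKO 3 reached the lowest CDK18KO tumour (log2 fold change -1.13 ± 0.38, SE; edgeR adjusted p = 0.579). Cenpe had 261, 163, 297, 229.9 and 146 CPM in CDK18KO, again with DKO 3 as the only overlap (log2 fold change -1.01 ± 0.35, SE; edgeR adjusted p = 0.620). Cdk1 averaged 108 ± 26.9 CPM in DKO and 187 ± 41.6 CPM in CDK18KO, a log2 fold change of -0.79 ± 0.28 (SE) and an adjusted p of 0.646 by edgeR. Aurka averaged 40.8 ± 14.5 CPM in DKO and 81.6 ± 36.5 CPM in CDK18KO, and Incenp 75.3 ± 15.1 CPM in DKO and 141 ± 54.2 CPM in CDK18KO. The log2 fold changes of Birc5, Kif2c, Ncapg, Racgap1 and Cdc20 were -0.54, -0.70, -0.73, -0.79 and -0.82. Those of Mki67, Top2a, Plk1, Foxm1 and Mybl2 were -0.65, -0.72, -0.52, -0.51 and -0.58, none at an unadjusted p under 0.05. Ccnb1, Cdc25c, Bub1, Ube2c and Ect2 stood at -0.36, -0.50, -0.81, -0.60 and -0.34. Only Kif18b at 0.09 and Fzr1, a late activator of the anaphase-promoting complex, at 0.0075 were above 0, and both signs turned under other settings.

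The promoters of these genes were read because the mitotic programme is known for the CHR element, TTTGAA, and for CCAAT boxes, which bind NF-Y. RefSeq windows of build GRCm38.p6, from 250 bases before to 50 after a transcription start, matched 49 of the 58 genes in 52 windows. TTTGAA, or its reverse complement TTCAAA, stood in 37 of the 52 windows, or 71.2%, against 17.9% of all 32851 windows. CCAAT or ATTGG stood in 39, or 75%, against 37.4%. Both kinds stood in 33, or 63.5%, against 6.95%. Cdc25c and Incenp have no window among these, and the next genes by p in DKO against WT are shown with Ckap2l.

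The Ckap2l window (GRCm38.p6 chr2:129297163-129297462, minus strand), the Cenpe window (chr3:135212313-135212612, plus strand) and the Ndc80 window (chr17:71526808-71527107, minus strand) are printed 5′ to 3′, with the CHR letters and CCAAT boxes of either strand in capitals, because these 3 genes had the smallest p values among those with a window.
Ckap2l: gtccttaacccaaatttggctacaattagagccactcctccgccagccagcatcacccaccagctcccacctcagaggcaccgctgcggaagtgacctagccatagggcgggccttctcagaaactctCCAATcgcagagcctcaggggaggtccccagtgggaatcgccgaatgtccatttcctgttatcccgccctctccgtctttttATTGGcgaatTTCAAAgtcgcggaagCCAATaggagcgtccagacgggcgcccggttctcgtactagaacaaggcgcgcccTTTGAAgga
Cenpe: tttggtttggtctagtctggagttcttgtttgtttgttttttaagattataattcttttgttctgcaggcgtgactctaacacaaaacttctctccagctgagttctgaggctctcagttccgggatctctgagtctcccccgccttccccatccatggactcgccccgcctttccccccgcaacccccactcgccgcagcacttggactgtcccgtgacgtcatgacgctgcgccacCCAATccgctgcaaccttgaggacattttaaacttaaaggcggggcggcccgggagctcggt
Ndc80: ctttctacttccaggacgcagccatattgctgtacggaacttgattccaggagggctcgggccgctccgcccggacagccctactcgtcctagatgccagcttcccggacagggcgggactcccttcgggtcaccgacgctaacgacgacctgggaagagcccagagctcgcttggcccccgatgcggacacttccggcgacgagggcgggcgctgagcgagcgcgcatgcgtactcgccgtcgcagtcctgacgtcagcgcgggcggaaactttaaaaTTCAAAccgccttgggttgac
In Ckap2l, ATTGG at -40 to -36 stands just before TTCAAA at -30 to -25, counted from the start site, with CCAAT at -14 to -10 and -122 to -118 and TTTGAA at 42 to 47. Cenpe holds CCAAT at -12 to -8 and no CHR letters, and Ndc80 holds TTCAAA at 30 to 35 and no CCAAT. A match of letters describes the window and does not show that a factor binds there.

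In DKO against WT, the median log2 fold change was -0.67 over the 34 mitosis genes with the CHR letters and -0.54 over the 15 with a window but without them. Among the other 686 tested genes with both motifs the median was -0.07, and among 4901 with neither it was -0.01. In CDK18KO against WT the same 4 medians were 0.01, -0.16, 0.02 and -0.01.

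**Figure D4:**
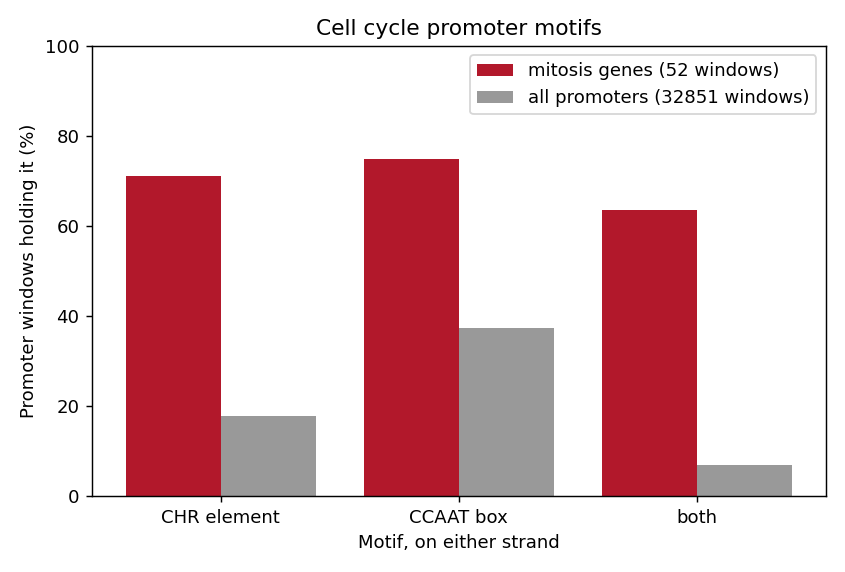
Share of RefSeq promoter windows, from 250 bases before to 50 after the start, that hold the CHR letters, a CCAAT box or both on either strand, for mitosis genes (52 windows) and all promoters (32851 windows). The shares are 71.2%, 75% and 63.5% for the mitosis genes, against 17.9%, 37.4% and 6.95% for all.

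Among tumours of 1 genotype, the mitosis genes varied slightly more than other genes in DKO and less in the other groups. The median SD on the log2(CPM + 1) scale was 0.653 in DKO, 0.494 in CDK18KO and 0.417 in WT. Over the 11485 tested genes in the same range of mean levels it was 0.594 in DKO, 0.606 in CDK18KO and 0.504 in WT. The most variable mitosis genes were Knl1 in DKO, with an SD of 1.37, Mybl2 in CDK18KO, with 1.30, and Kif4 in WT, with 1.23. These are descriptions, with no test of the differences in spread.

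A second pattern, seen in single genes after their values were read, ran across the genotypes. In DKO 1, CDK18KO 5, WT 2 and WT 3, Mki67 had 35.1, 68.6, 82.4 and 72.8 CPM, the 4 lowest of its 14 values. Kif4, a chromosome-bound kinesin, had 2.57, 11.1, 9.89 and 5.24 CPM in the same 4 libraries, also its 4 lowest, and up to 46.0 CPM in WT 4. Ube2c instead had its 3 highest values in 3 of them, 249 CPM in CDK18KO 5, 164 CPM in WT 2 and 287 CPM in WT 3, and so had Foxm1. In the same libraries, GC-rich transcripts stood high in general. Over all tested genes, the level of the GC-richest 25% minus that of the GC-poorest 25% was 0.70, 0.28, 0.56 and 0.47 (log2) in DKO 1, CDK18KO 5, WT 2 and WT 3, the 4 highest of 14 values. The 29 GC-richer mitosis genes minus the 29 GC-poorer ones gave 0.78, 0.22, 0.32 and 0.58 there, and values below 0 in every other library. The transcripts of Mki67 and Kif4, at 46.6% and 48.1% GC, are among the 29 GC-richer ones, although both were low in these 4 libraries. CDK18KO 4 followed closely over all tested genes, at 0.25, and its Mki67 level was not among the 4 lowest. GC content here is that of each gene's whole longest transcript, whereas the libraries counted 3′ ends. The part of GC content in these levels was not tested. Both sets of 29 stood lower in DKO: the median log2 fold change of DKO over WT was -0.65 in the GC-richer and -0.58 in the GC-poorer genes. With an offset for GC content added to the fit, 28 mitosis genes were at an unadjusted p under 0.05 in DKO against WT, all lower, beside 8.64% of all genes lower. The median was then -0.76, and that of all genes -0.13.

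**Figure D5:**
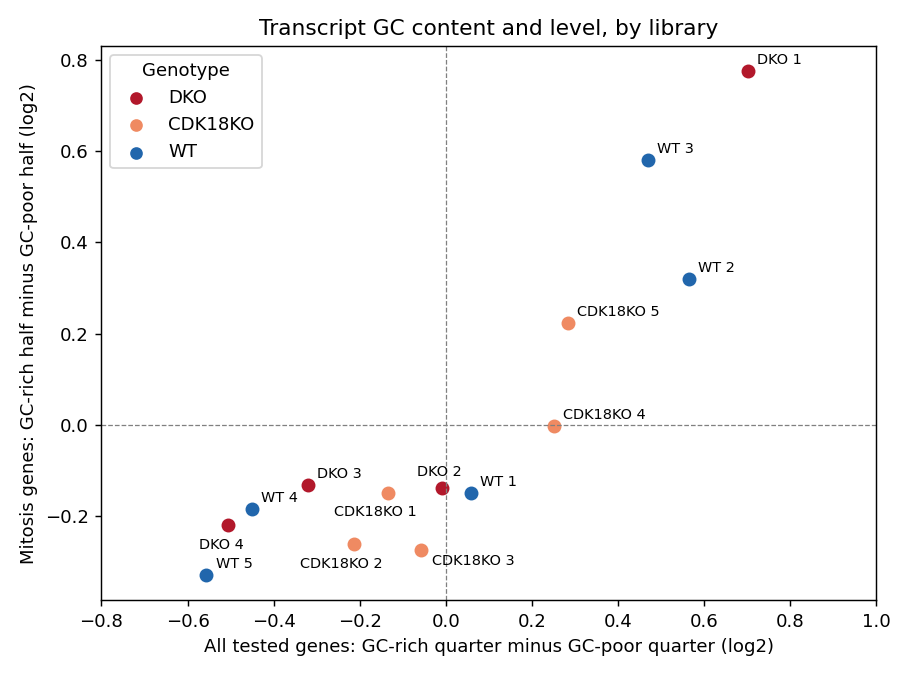
For each library, the median log2 deviation of GC-rich genes minus that of GC-poor genes: over all tested genes (top and bottom 25% of transcript GC) on the horizontal axis and over the 58 mitosis genes (the 29 GC-richer and 29 GC-poorer) on the vertical axis, coloured by genotype. DKO 1, WT 2, WT 3 and CDK18KO 5 lie at the upper right, from all 3 genotypes.

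A further 124 genes of mitosis, from 11 lists of other kinetochore, checkpoint, spindle, cohesin and related factors, gave the wider setting, and 123 were tested. In DKO against WT their median log2 fold change was -0.49, 103 were below 0, none passed edgeR's test, and 24 were lower at an unadjusted p under 0.05, or 19.5% against 5.22% of all genes. The 4 with the smallest p, each called by DESeq2, included Cdca5, sororin, which protects cohesion, at 5.88 ± 1.24 CPM in DKO and 14.1 ± 3.65 CPM in WT. The others were Haus1 of the augmin complex, the phosphatase Cdc25a, and Cep55, which acts in the last cut of cytokinesis. The log2 fold changes of Haus1, Cdc25a and Cep55 were -1.05, -0.93 and -1.16. The 8 genes of the DREAM and B-MYB complexes apart from Mybl2, which regulate the programme, had a median of -0.11, and the 7 other kinesins one of -0.92.

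In CDK18KO against WT the median of the 123 genes was -0.11. At an unadjusted p under 0.05 only 1 was lower, Cdc26 of the anaphase-promoting complex, or 0.813% against 5.31% of all genes. None was higher, against 11.6%. Cdc26 averaged 11.3 ± 4.29 CPM in CDK18KO and 23.4 ± 8.28 CPM in WT, and Esco2, Pds5a and Hjurp had log2 fold changes of 0.61, -0.56 and 0.69. In DKO against CDK18KO the median was -0.34 and 9 were lower at an unadjusted p under 0.05, or 7.32% against 1.86% of all genes, led by Cdc25a, Haus8, Cdca2 and Kif14 at -0.87, -1.17, -0.83 and -0.94. S phase genes stood beside the mitosis genes: the median of 45 replication genes was -0.67 in DKO against WT, -0.25 in CDK18KO against WT and -0.48 in DKO against CDK18KO. In DKO against WT, 44 of the 45 were below 0. At an unadjusted p under 0.05, 16 of them were lower there, or 35.6%, beside 5.22% of all genes. In CDK18KO against WT 1 was lower and 1 higher at that p, beside 5.31% and 11.6%. In DKO against CDK18KO 7 were lower, or 15.6%, beside 1.86%.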

How the data were processed

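The deposited table holds raw counts per gene symbol. The submitters' processing notes name STAR 2.7.11a for the authors' alignment, HTSeq 1.99.2, UMI-tools 1.1.2, FastQC and DESeq2 1.32.0, with mm10 as well as GRCh38 as builds. Per the labels' protocols, libraries came from poly(A)-primed, strand-keeping 3′ sequencing with molecular identifiers. Whether identical identifiers were collapsed before counting is not stated in those notes or labels, so the counts are treated as reads.

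Counts were fitted across all 14 libraries with edgeR 4.0.16 in R 4.3.3 (quasi-likelihood test, TMM factors, filterByExpr by group, genotype as the only term). P-values are two-sided, with Benjamini-Hochberg adjustment over the 13997 genes kept, which held 99.0% of counts, and calls were made below an adjusted p of 0.05. Each SE was taken as the absolute log2 fold change over the square root of F. CPM values use TMM-scaled library sizes, and logs add a pseudocount of 1. The biological coefficient of variation common to all genes was 0.598. The steps were run on simulated data with known fold changes, whose recovery is not given here. A gene that was not called is not shown to be unchanged. P-values measure the spread between tumours, 4 or 5 per group. The highest correlation between 2 libraries was 0.935, so no library was counted as a duplicate.

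The 58 genes and all other lists were chosen with earlier results of these data known. Genes named are Mki67, Top2a, Cdk1, Ccnb1, Plk1, Foxm1 and Mybl2, the 2 with the smallest p in each of 11 roles, the 3 most positive, any called, and 4 of the other mitosis genes. Others, such as Aurkb, Spc24, Nuf2, Ccnb2, Mad2l1, Kif4 and Knl1, were named after their values were seen. GC content is that of the longest GENCODE M21 transcript (GRCm38), found for 93.7% of tested genes and all 58. Alternatives were other scalings, filters and fits, DESeq2 1.42.0, leaving out each library, and 3 added after seeing the data: without DKO 1 and DKO 2, without 3 libraries with Y-linked genes above 100 CPM, and a GC offset. For DESeq2, shares of all genes are over those with an adjusted p, 17357 in both comparisons with WT and 18824 in DKO against CDK18KO. For the other alternatives they are over the genes that each kept.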

Additional observations from a re-analysis of the deposited data

Results flagged for a closer look

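Within the groups of 4 or 5 tumours, 7 single values stood far from the rest of their group, among 120 groups (40 named genes in 3 genotypes), and chance marks about 1 in 20. In the DKO tumours, Ckap2l was 31.7 CPM in DKO 3, with the next at 22.2 CPM, and Tpx2 was 91.3 CPM in DKO 3, with the next at 51.1 CPM. Both values stood at the high end, in the DKO tumour with the highest mitosis gene levels. Aurka was 62.3 CPM in DKO 1, with the next at 35.9 CPM, and Cdca8 was 53.5 CPM in DKO 2, with the next at 96.1 CPM. In the CDK18KO tumours, Spc25 was 223 CPM in CDK18KO 4, with the next at 132 CPM. Birc5 was 323 CPM in CDK18KO 5, with the next at 211 CPM, and Ect2 was 169 CPM in CDK18KO 2, with the next at 103 CPM. No value of a WT tumour stood apart in this way. No cause was tested.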

How the results depend on the processing

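The direction of the median over the 58 genes held under every alternative in both DKO comparisons, and no mitosis gene passed the edgeR test in any of them except with the replicate block. For DKO over WT, the median lay between -0.87 and -0.47 over the single libraries left out. The number at an unadjusted p under 0.05 lay between 7 and 30, all lower, beside 2.42% to 10.3% of all genes lower. That without overlap lay between 6 and 20, all lower, beside 2.93% to 11.1%. For CDK18KO over WT the ranges were 2 to 5 genes and 0 to 2 genes. Over all genes, 3.66% to 9.74% were lower and 6.83% to 14% higher at that p. Without overlap, 1.78% to 5.24% were lower and 1.01% to 4.41% higher. For DKO over CDK18KO the ranges were -0.94 to -0.50, 10 to 31 genes and 6 to 18 genes, the counts beside 1.19% to 3.35% and 0.961% to 2.16% of all genes lower.

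DESeq2 called 6 genes in DKO against WT, 1 in CDK18KO against WT and 1 in DKO against CDK18KO, beside 5.81%, 5.35% and 0.632% of all genes. Same-numbered tumours deviated together only in part. Their correlations ran from -0.20 to 0.46 in DKO and WT (2 of 4 over 0.1), -0.24 to 0.31 in CDK18KO and WT (1 of 5) and -0.17 to 0.66 in DKO and CDK18KO (3 of 4). In each comparison 1 tumour of the first-named group correlated best with the tumour of its own number. Whether the replicate number shared by title marks a pairing was not tested. With this number as a replicate block, 1 mitosis gene was called in DKO against WT (Ncapd2, -1.48, edgeR adjusted p = 0.0455), among 438 of the 13997 genes tested. In CDK18KO against WT, 3 were then lower and 2 higher at an unadjusted p under 0.05 (5 in all), beside 9.3% of all genes lower and 10.4% higher.

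Without DKO 1 and DKO 2, 5 genes were at an unadjusted p under 0.05 in DKO against WT (median -0.23) and 6 in DKO against CDK18KO, beside 2.65% and 2.47% of all genes lower. In DKO against WT 11 were then without overlap, beside 6.54% of all genes lower and 6.55% higher. Leaving out the 3 libraries above 100 CPM of Y-linked genes, 11 were at an unadjusted p under 0.05 in DKO against WT, beside 4.44% of all genes lower. In CDK18KO against WT 3 then had no overlap, 1 lower and 2 higher, beside 7.2% of all genes lower and 3.94% higher. With the GC offset, 28 and 33 were at that p in DKO against WT and against CDK18KO, beside 8.64% and 6.06% of all genes lower, with 17 without overlap in the second, beside 2.34%, where the median of all genes moved to -0.20. With it 1 gene, higher, was without overlap in CDK18KO against WT, beside 1.53% of all genes. Genes without overlap in CDK18KO against WT were 1, lower, with upper-quartile factors, 1, lower, with library totals and 2, 1 each way, with no filter, beside 1.87%, 2% and 0.937% of all genes lower and 0.481% higher in the last. In DKO against CDK18KO 3 were lower with library totals, beside 0.479%. Upper-quartile factors and library totals moved the median of all genes in DKO over WT to -0.16 and -0.19, from -0.04, and that of the 58 genes to -0.73 and -0.75.

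Signs turned for some genes, many of them near 0 in the main fit. Mki67 in DKO over WT, Ube2c in CDK18KO over WT, and Ccnb1 and Ect2 in DKO over CDK18KO stood further from 0 there. In DKO over WT, Spc25 was -0.032 with upper-quartile factors, -0.088 with library totals, -0.12 without the Y-linked libraries and -0.032 with the GC offset, and -0.043 to 0.28 over the libraries left out. Anln ranged from -0.67 to 0.077, and without DKO 1 and DKO 2 Anln was 0.42 and Mki67 0.037. In CDK18KO over WT, Top2a was -0.077, -0.063, -0.029 and -0.32 with upper-quartile factors, library totals, the replicate block and without the Y-linked libraries, Birc5 was -0.010 with library totals and Mki67 -0.19 without the Y-linked libraries. Over the libraries left out, Top2a ranged from -0.19 to 0.13, Mki67 from -0.17 to 0.34, Racgap1 from -0.28 to 0.019, Birc5 from -0.032 to 0.21 and Ube2c from -0.66 to 0.019. In DKO over CDK18KO, Fzr1 was -0.011 with no filter, -0.15 with the replicate block and -0.16 with the GC offset, and Kif18b -0.12 with the block, and without DKO 1 and DKO 2 Ccnb1 was 0.12 and Ect2 0.079. Over the libraries left out, Fzr1 ranged from -0.15 to 0.19 and Kif18b from -0.35 to 0.39. The causes were not tested.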
